A study of Mus musculus with 10 samples.

Results

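In whole mouse lung, 10 genes of contractile smooth muscle were followed one by one: Acta2, Actg2, Myh11, Cnn1, Tagln, Lmod1, Smtn, Mylk, Des and Myocd. They were found by gene symbol, each with 1 row, among the 54532 genes of the table, and all 10 passed the filter on low values described below. Wild-type C57BL/6J pups were operated on postnatal day 7 (P7), and their lungs were collected at P30. In the IPF group (increased pulmonary blood flow, n = 5), an aortocaval fistula was made by a puncture from the abdominal aorta into the inferior vena cava. In the sham group (n = 5), the same operation was done without the puncture. RNA was taken from whole frozen lung, so airway, vessel and parenchyma were read together, and fewer cells of a type cannot be told apart from less RNA per cell.

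Smooth muscle contracts when myosin pulls on actin filaments. Acta2 and Actg2 encode the smooth muscle actins and Myh11 the smooth muscle myosin heavy chain. Calponin (Cnn1), transgelin (Tagln), leiomodin (Lmod1) and smoothelin (Smtn) bind to actin filaments, Mylk encodes the kinase that phosphorylates myosin light chain and so starts contraction, and Des encodes the intermediate filament protein desmin. Myocardin (Myocd) is the co-activator of serum response factor (Srf), which binds CArG boxes in front of many of these genes. In the lung, smooth muscle wraps both the airways and the vessels, and Acta2 is also made by myofibroblasts, while Des and Myocd are also made by heart muscle.

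The CArG box is shown first because it is the DNA element that the Srf and myocardin pair reads. Promoter sequences came from RefSeq (GRCm38.p6, the build of the gene positions in the table), and the 250 bases before the RefSeq start of each gene were searched. Distances are counted from that start, which for Acta2 lies upstream of the gene's end in the authors' table. The box reads the same on both strands, so 1 scan covers both. Of the 10 members, 6 matched an entry: Acta2, Cnn1, Lmod1, Smtn, Des and Mylk. Myh11, Tagln, Actg2 and Myocd did not. An exact CArG box was present in 0 of these 6 windows and in 1.47% of all 32851 promoter windows. With at most 1 G or C allowed among the 6 inner bases, Acta2 had 2 matches, at 84 and 34 bases before its start, the other 5 members had none, and 8.59% of all windows had at least 1. These are matches of letters and do not show binding. Boxes farther upstream or inside the genes were not searched, so no match here does not mean that a gene has no box. The window of Acta2 (chr19:34255374-34255623, minus strand) is printed 5′ to 3′, with both matches in capitals.
Acta2: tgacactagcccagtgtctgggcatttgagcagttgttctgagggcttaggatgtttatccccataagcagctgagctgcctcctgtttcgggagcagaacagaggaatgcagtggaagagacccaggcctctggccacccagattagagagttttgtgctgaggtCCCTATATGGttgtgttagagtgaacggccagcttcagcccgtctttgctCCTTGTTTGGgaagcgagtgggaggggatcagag
Of 20 other genes of the contractile apparatus, 19 had a promoter entry and 6 of these had an exact box. Windows around the exact boxes of Myl9 (chr2:156775293-156775322, plus strand), Cnn2 (chr10:79988534-79988563, plus strand), Vcl (chr14:20929161-20929190, plus strand) and of Srf itself (chr17:46556225-46556254, minus strand) are given for comparison, with the box in capitals.
Myl9: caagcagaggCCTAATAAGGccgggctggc
Cnn2: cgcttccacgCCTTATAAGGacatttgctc
Vcl: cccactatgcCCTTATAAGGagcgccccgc
Srf: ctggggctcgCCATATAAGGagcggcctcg
The 4 exact boxes differ from the 2 Acta2 matches in that all of their 6 inner bases are A or T. Srf had another exact box, CCATAAAAGG, at 62 bases before its start, outside the printed window.

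Expression was deposited by the authors as FPKM (fragments scaled to gene length and to the size of the library), so that levels of different genes can be compared per length. The reads behind the values, recovered from the FPKM and the gene length, summed to between 15483046 and 19026843 per library. Some features of the libraries touch the results. Xist was at 34.1 ± 8.43 FPKM in the IPF group and 0.0493 ± 0.0225 FPKM in the sham group (SD, n = 5 each), and the Y-linked Ddx3y had 0 reads in all 5 IPF libraries, while its sham level was 17.4 ± 3.07 FPKM (SD, n = 5). The clock genes Arntl (5.84 ± 1.503 against 0.366 ± 0.0634 FPKM, SD, n = 5 each) and Dbp (2.26 ± 0.707 against 26.4 ± 2.61 FPKM, SD, n = 5 each) also divided the groups without overlap. Sex and the clock phase of the lungs therefore cannot be told apart from the operation in any comparison below. Libraries that stood apart were IPF replicate 3 and sham replicate 1. IPF replicate 3 was the highest library for the airway genes Scgb1a1 and Foxj1, and sham replicate 1 correlated least with the remaining libraries (mean Spearman rho 0.957), where the other 9 lay between 0.963 and 0.968 (a description across genes).

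The members spanned a wide range of levels. Acta2 was the highest with a mean of 89.9 FPKM over all 10 lungs, followed by Mylk (38.0), Des (29.6), Myh11 (17.9), Smtn (16.9), Actg2 (11.0), Cnn1 (7.90), Lmod1 (4.58), Tagln (1.75) and Myocd (0.351). Acta2 lay above Mylk, Lmod1 above Tagln and Tagln above Myocd with no overlap of their ranges over the lungs. The ranges of the other neighbours overlapped, although Mylk above Des, Des above Myh11 and Actg2 above Cnn1 held in 10 of 10 lungs. Smtn was above Actg2 in 9 lungs and Cnn1 above Lmod1 in 8, while Myh11 was above Smtn in 5 of 10 lungs, so the order of Myh11 and Smtn is not set by these data. Counting error was a small part of the spread for most members. It was 16.1% of the value for Myocd, with 21 to 64 reads per library, and 13.01% for Tagln, with 40 to 80 reads, but at most 5.86% for each of the other 8.

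**Figure D1:**
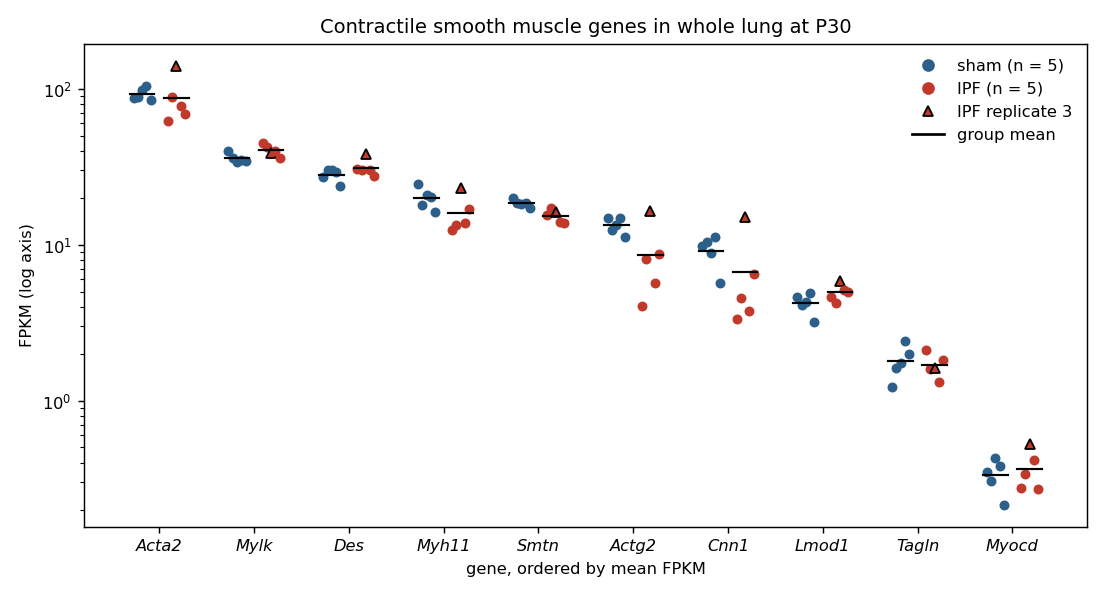
FPKM of each member (log axis) in the 5 sham and 5 IPF lungs, 1 point per lung, with the group means as lines and IPF replicate 3 as an outlined triangle. Actg2 and Cnn1 show the widest spread within the IPF group, from 4.04 to 16.5 FPKM and from 3.35 to 15.1 FPKM, and in both the triangle lies above all sham points.

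To ask whether contractile genes changed with increased flow, the groups were compared with limma on log2(FPKM + 0.1), and p-values were adjusted over all 20448 genes with a mean of at least 0.1 FPKM. At an adjusted p under 0.05, 1 of 10 members passed, Smtn, which was lower in the IPF group, where 5.85% of all genes tested passed and 2.14% passed as lower and 3.71% as higher. None of the 10 also passed an absolute log2 fold change of 1 (1.14% of all genes), in the limma fit or with limma voom on the recovered reads. Without adjustment, 3 members had a limma p under 0.05 (Smtn, Actg2 and Mylk), against 19.5% of all genes in either direction and 8.3% as lower. Lower values in the IPF group were fitted for 6 members and higher values for 4, with a median log2 fold change of -0.10, beside 0.00 over all genes tested (49.6% lower). In 0 of 10 members did the groups separate without overlap, as they did for 7.29% of all genes, 2.77% with the IPF group below and 4.52% with it above. When single libraries were left out, between 0 and 2 members passed. Without IPF replicate 3, the 2 that passed were Cnn1 and Actg2, where 1159 of 20461 genes passed.

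Acta2 (ENSMUSG00000035783, chromosome 19 of GRCm38, 34241090 to 34255336) encodes α-smooth muscle actin. It was at 61.7, 88.7, 140.1, 77.7 and 69.0 FPKM in IPF replicates 1 to 5 and at 87.3, 88.5, 98.2, 104 and 84.1 FPKM in sham replicates 1 to 5. Of the IPF lungs, 3 lay below every sham lung and 1, replicate 3, above every sham lung, so the groups overlapped widely. The means were 87.4 ± 31.1 and 92.4 ± 8.39 FPKM (SD, n = 5 each), giving a log2 difference of -0.14 (95% interval -0.54 to 0.27, limma adjusted p = 0.739, two-sided p = 0.556 by exact permutation). It was -0.32 without IPF replicate 3, -0.028 without IPF replicate 1 and -0.068 without IPF replicate 5, and the sign turned to 0.11 with the airway genes as a covariate, with limma adjusted p from 0.122 to 0.958 over 23 alternatives. The 5 IPF lungs spread with a coefficient of variation of 35.6%, against 9.07% in the sham lungs.

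Actg2 (ENSMUSG00000059430, chromosome 6, 83512905 to 83536265) encodes γ-smooth muscle actin, the enteric form. Its values were 4.04, 8.09, 16.5, 5.71 and 8.68 FPKM in the IPF lungs and 14.7, 12.5, 13.4, 14.8 and 11.2 FPKM in the sham lungs. Of the 5 IPF lungs, 4 were below every sham lung, and replicate 3 was above all of them. The log2 fold change was -0.78 (standard error 0.29, 95% interval -1.42 to -0.13, limma adjusted p = 0.162), and the exact permutation test gave a two-sided p of 0.0556. Without IPF replicate 3 it was -1.05 (limma adjusted p = 0.0161), and with the airway genes as a covariate -0.35 (limma adjusted p = 0.263, where the 23 alternatives ranged from 0.0161 to 0.304). Actins share long stretches of sequence, so reads of Actg2 and Acta2 may have been divided between paralogs in counting.

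Myh11 (ENSMUSG00000018830, chromosome 16, 14194535 to 14291372) was at 12.4, 13.3, 23.1, 13.7 and 17.0 FPKM in the IPF lungs and at 24.6, 18.02, 20.9, 20.1 and 16.1 FPKM in the sham lungs. IPF replicates 1, 2 and 4 were the lowest of all 10 lungs, and replicates 3 and 5 fell inside the sham range. The log2 fold change was -0.35 (95% interval -0.71 to 0.02, limma adjusted p = 0.280, two-sided p = 0.103 by exact permutation). This difference was within the spread between lungs, and with the airway genes as a covariate it was -0.12 (limma adjusted p = 0.602, where the 23 alternatives ranged from 0.0519 to 0.602).

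Among the proteins that bind actin filaments, Cnn1 (ENSMUSG00000001349, chromosome 9, 22099216 to 22109630) varied most. It was at 3.35, 4.52, 15.1, 3.77 and 6.53 FPKM in the IPF lungs and at 9.76, 10.4, 8.81, 11.1 and 5.70 FPKM in the sham lungs, so the highest lung held 4.51 times the level of the lowest. IPF replicates 1, 2 and 4 were again below every sham lung and replicate 3 above. The log2 fold change was -0.65 (standard error 0.36, 95% interval -1.44 to 0.13, limma adjusted p = 0.354, two-sided p = 0.167 by exact permutation). Without IPF replicate 3 it was -1.01 (limma adjusted p = 0.0291), and with the airway genes as a covariate -0.08 (limma adjusted p = 0.672), which are the lowest and the highest adjusted p of the 23 alternatives.

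Smtn (ENSMUSG00000020439, chromosome 11, 3517523 to 3540612), the member that passed the test, differed by less but was more even. It was at 15.6, 17.18, 16.1, 14.0 and 13.8 FPKM in the IPF lungs and at 19.9, 18.4, 18.2, 18.5 and 17.16 FPKM in the sham lungs. All IPF lungs but replicate 2 lay below every sham lung. The means were 15.4 ± 1.41 and 18.4 ± 0.965 FPKM (SD, n = 5 each), giving a log2 difference of -0.26 (standard error 0.07, 95% interval -0.42 to -0.11, limma adjusted p = 0.0495, two-sided p = 0.0159 by exact permutation). The call lies at the threshold: it was lost in 18 of 23 alternatives, among them 9 of the 10 that left out 1 lung. Over all 23 the log2 fold change stayed between -0.31 and -0.23 and the limma adjusted p ranged from 0.0336 to 0.136. The opposite-strand transcript Gm11946 lies within Smtn, at 0.0128 to 0.168 FPKM, and its reads cannot be told apart from those of Smtn if strand was not used.

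Lmod1 (ENSMUSG00000048096, chromosome 1, 135324807 to 135368065), which starts actin filaments, leaned the other way. It was at 4.598, 4.25, 5.84, 5.10 and 4.95 FPKM in the IPF lungs and at 4.64, 4.10, 4.31, 4.87 and 3.17 FPKM in the sham lungs. Of the IPF lungs, 3 were above every sham lung, and the log2 fold change was 0.23 (95% interval -0.03 to 0.50, limma adjusted p = 0.326, two-sided p = 0.103 by exact permutation). It was 0.14 without sham replicate 5 and 0.36 with the airway genes as a covariate, with limma adjusted p from 0.0933 to 0.523 over 23 alternatives.

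Tagln (ENSMUSG00000032085, chromosome 9, 45929619 to 45936058) was far lower than the other filament genes and showed no order by group. It was at 2.10, 1.60, 1.62, 1.32 and 1.82 FPKM in the IPF lungs and at 1.22, 1.63, 1.75, 2.42 and 1.98 FPKM in the sham lungs, and the sham lungs held both the highest and the lowest value. The log2 fold change was -0.07 (95% interval -0.45 to 0.32, limma adjusted p = 0.883). The sign turned without IPF replicate 4 (0.013) and without sham replicate 4 (0.043), and the value was -0.19 without sham replicate 1, with limma adjusted p from 0.586 to 0.981 over 23 alternatives. The gene overlaps the antisense gene Gm48529 over 3627 bases and the opposite-strand gene Pcsk7 over 108 bases. Gm48529 was at 0.310 to 0.835 FPKM and Pcsk7 at 8.75 to 11.6 FPKM. Whether reads of Tagln were assigned to these genes or left out was not tested, and the level of Tagln is therefore uncertain.

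Mylk (ENSMUSG00000022836, chromosome 16, 34745210 to 35002420), the kinase, had the smallest ratio of highest to lowest lung among the members. It was at 44.8, 42.1, 38.8, 39.7 and 35.8 FPKM in the IPF lungs and at 39.8, 35.7, 34.0, 34.9 and 34.5 FPKM in the sham lungs. Of the IPF lungs, 2 were above every sham lung, and that ratio was 1.32. The log2 fold change was 0.17 (95% interval 0.01 to 0.32, limma adjusted p = 0.208, two-sided p = 0.0556 by exact permutation). Mylk also gives transcripts in cells other than smooth muscle, which this gene-level value does not separate, and 3 antisense genes overlap it, with means of at most 0.173 FPKM.

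Des (ENSMUSG00000026208, chromosome 1, 75360329 to 75368579) was at 30.6, 29.9, 38.2, 29.99 and 27.5 FPKM in the IPF lungs and at 27.1, 30.3, 30.1, 29.0 and 23.6 FPKM in the sham lungs. Apart from IPF replicate 3 at the top and sham replicate 5 at the bottom, the lungs lay close together. The log2 fold change was 0.15 (95% interval -0.06 to 0.36, limma adjusted p = 0.420). It was 0.078 without IPF replicate 3, 0.093 without sham replicate 5 and 0.26 with the airway genes as a covariate, with limma adjusted p from 0.0994 to 0.737 over 23 alternatives.

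Myocd (ENSMUSG00000020542, chromosome 11, 65176561 to 65269989), the co-activator, was scarce. It was at 0.274, 0.336, 0.527, 0.419 and 0.273 FPKM in the IPF lungs and at 0.349, 0.304, 0.427, 0.383 and 0.214 FPKM in the sham lungs. The groups overlapped, with a log2 fold change of 0.09 (95% interval -0.41 to 0.59, limma adjusted p = 0.877). The sign turned without IPF replicate 3 (-0.025) and without sham replicate 5 (-0.023), and the value was 0.16 without IPF replicate 1, IPF replicate 5 or sham replicate 3. It was 0.275 with the airway genes as a covariate, and the limma adjusted p ranged from 0.568 to 0.994 over 22 alternatives. Counting error (16.1%) was smaller than the coefficient of variation between lungs, 29.5% in the IPF and 24.2% in the sham group.

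**Figure D2:**
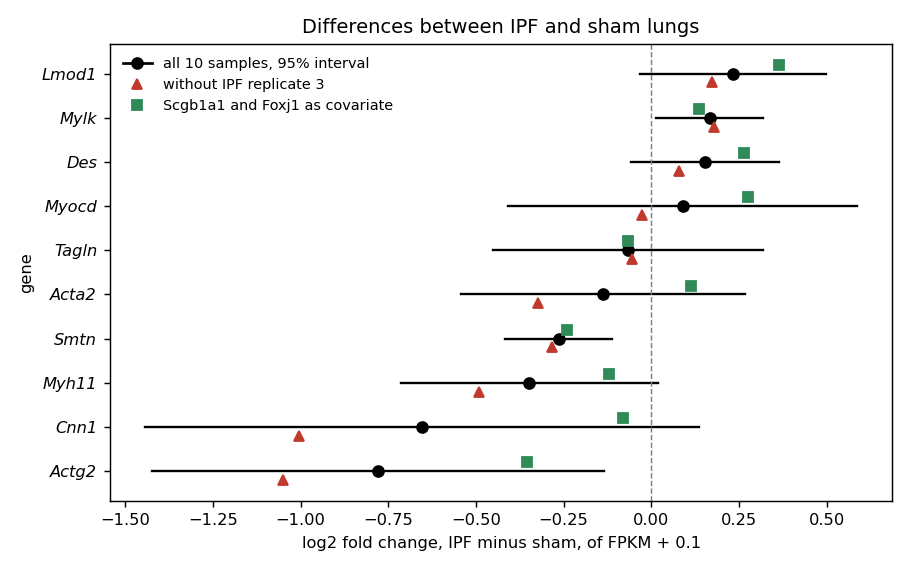
Log2 fold change of each member, IPF minus sham, with its 95% interval from limma over all 10 lungs (black), and the value without IPF replicate 3 (red triangle) or with the mean of Scgb1a1 and Foxj1 as a covariate (green square). For Cnn1 the triangle is at -1.01 and the square at -0.08, and for Smtn the values are -0.28 and -0.24.

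Genes of the airway lining varied alongside some members. Scgb1a1, the secretory protein of club cells, was at 3285, 4791, 25938, 4328 and 12863 FPKM in the IPF lungs and at 14072, 18825, 16858, 22154 and 11078 FPKM in the sham lungs. IPF replicates 1, 2 and 4, which were also the 3 lowest lungs for Myh11, Cnn1 and Actg2, were well below all other lungs, and replicate 3 was the highest. Its log2 fold change was -1.12 (95% interval -2.38 to 0.14, limma adjusted p = 0.317). Foxj1, the transcription factor of ciliated cells, was at 9.52, 10.1, 30.7, 9.50 and 7.24 FPKM in the IPF lungs and at 14.5, 13.4, 13.4, 18.6 and 7.27 FPKM in the sham lungs, a log2 difference of -0.16 (limma adjusted p = 0.861). Leaving out IPF replicate 3 gave -0.51 for Foxj1, leaving out sham replicate 5 gave -0.36 and leaving out IPF replicate 5 gave 0.0094, with limma adjusted p from 0.251 to 0.992 over 23 alternatives. The airway covariate, 1 of these, is made in part of Foxj1 and is no check of it. The summed level of 10 club cell genes, most of which was Scgb1a1 itself, ranged from 3715 to 27465 FPKM in the IPF and from 11530 to 22996 FPKM in the sham lungs. For 12 ciliated cell genes the sums ranged from 168.5 to 301.6 FPKM and from 170.3 to 256.1 FPKM, and Tppp3 made up most of each sum. In IPF replicates 1, 2 and 4, Cyp2f2 was below all sham lungs (164, 226 and 202 against 254 to 475 FPKM). Scgb3a2 was not (263, 461 and 368 against 144 to 362 FPKM). Of the club cell genes tested, 5 were fitted higher and 3 lower (median log2 fold change 0.14), and of the ciliated cell genes 2 and 10 (median -0.32). None of the 8 club cell genes and 12 ciliated cell genes tested passed, with 0 under an unadjusted limma p of 0.05 and 0 called by limma voom. Without IPF replicate 3, where 1159 of 20461 genes passed, 4 of these 20 passed as lower, which were Cyp2f2 (-0.81, limma adjusted p = 0.0308), Dnah5 (-1.09, 0.0269), Ccdc113 (-0.99, 0.0361) and Cdhr3 (-0.97, 0.0257), and each of these passed in no other of the 23 alternatives.

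**Figure D3:**
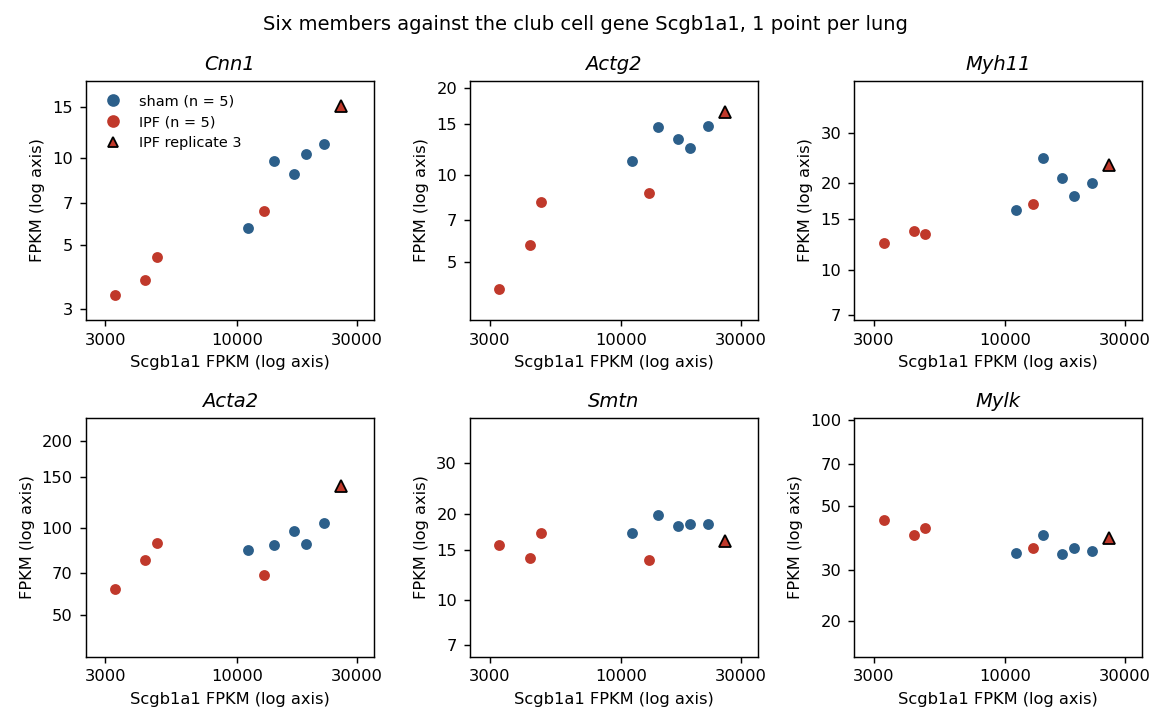
FPKM of 6 members against FPKM of Scgb1a1 (both axes logarithmic, every panel spanning the same ratio on the vertical axis), 1 point per lung, sham in blue, IPF in red and IPF replicate 3 as an outlined triangle. Cnn1 rises along with Scgb1a1 through lungs of both groups (Pearson r = 0.964), whereas Smtn (r = 0.46) and Mylk (r = -0.73) do not follow it upward in the same way. For Mylk, r was -0.50 without IPF replicates 1 and 4 and 0.22 without IPF replicates 1, 2 and 4.

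Correlations were computed over the 10 lungs on log2(FPKM + 0.1) for 45 pairs of members and 20 pairs of a member with an airway gene, with permutation p-values adjusted over all 65 pairs. All genes of a lung were read in the same library and piece of tissue, so the points share depth and tissue make-up, and r describes co-variation only. Of the 45 member pairs, 29 were positive and 6 had an adjusted p under 0.05, with a median r of 0.27. Of the 20 airway pairs, 17 were positive and 6 passed. By Spearman's rho, 3 and 3 pairs passed, without IPF replicate 3 again 3 and 3, and without sham replicate 4 also 3 and 3.

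The tightest member pair was Cnn1 with Actg2 (r = 0.931, permutation p = 2.0e-05, adjusted 0.00065, rho = 0.952, permutation p = 9.0e-05, adjusted 0.00292). Without the 2 lungs farthest from the median of Cnn1, IPF replicates 1 and 4, r was 0.901. Myh11 varied with Cnn1 (r = 0.919, permutation p = 0.00026, adjusted 0.00338, rho = 0.855, permutation p = 0.00286, adjusted 0.0372) and with Actg2 (r = 0.904, permutation p = 6.0e-05, adjusted 0.000975, rho = 0.915, permutation p = 0.00054, adjusted 0.00877). Without the 2 farthest lungs, IPF replicate 1 and sham replicate 1, these were 0.943 and 0.902. The same 3 pairs were those that passed without IPF replicate 3. With the group means removed, so that r compares lungs within their group, r was 0.921 for Cnn1 and Actg2 (exact permutation p = 0.000625, adjusted 0.0196), 0.863 for Myh11 and Actg2 (0.000903, adjusted 0.0196) and 0.893 for Myh11 and Cnn1 (0.00583, adjusted 0.0555).

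Acta2 went with Cnn1 (r = 0.803, permutation p = 0.00343, adjusted 0.0279, rho = 0.770, permutation p = 0.0123, adjusted 0.0666) and with Actg2 (r = 0.801, permutation p = 0.00448, adjusted 0.0324, rho = 0.806, permutation p = 0.00724, adjusted 0.055). Both rest in part on IPF replicates 1 and 3, without which r was 0.561 and 0.666. Myocd and Des (r = 0.785, permutation p = 0.0083, adjusted 0.045, rho = 0.479, permutation p = 0.165, adjusted 0.374) rested on IPF replicate 3 and sham replicate 5, since r was 0.144 without them. Smtn, Mylk, Lmod1 and Tagln had no pair that passed. Mylk was negative with 6 of the other 9 members, among them Actg2 (r = -0.64, permutation adjusted p = 0.136). Without the 2 lungs farthest from the median of Actg2, IPF replicates 1 and 4, that r was -0.20.

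Of the airway genes, Scgb1a1 followed the same group of members. It varied with Cnn1 at r = 0.964 (permutation p = 1.0e-05, the smallest these permutations can give, adjusted 0.00065, rho = 0.988, permutation p = 1.0e-05, adjusted 0.00065), and the order of the 10 lungs was nearly the same for both genes. It varied with Actg2 at r = 0.932 (permutation p = 5.0e-05, adjusted 0.000975, rho = 0.939, permutation p = 0.0002, adjusted 0.00433) and with Myh11 at r = 0.885 (permutation p = 0.00098, adjusted 0.0106, rho = 0.830, permutation p = 0.00458, adjusted 0.0496). Without the 2 lungs farthest in Scgb1a1, IPF replicates 1 and 4, r was 0.925, 0.835 and 0.785. The 3 IPF lungs low in Scgb1a1 lie apart from the rest. Among the other 7 lungs, picked by their Scgb1a1 values, r was 0.938 for Cnn1, 0.720 for Actg2 and 0.519 for Myh11. Because the lungs were picked this way, these values are a description and no test. These 7 lungs span a narrower range of Scgb1a1, so their r cannot be compared with that over 10 lungs. Within groups, with their means removed, r was 0.956 for Cnn1 (exact permutation p = 0.000347, adjusted 0.0196), 0.90 for Actg2 (0.00271, adjusted 0.044) and 0.835 for Myh11 (0.0144, adjusted 0.0635).

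Foxj1 varied with Acta2 (r = 0.862, permutation p = 0.00186, adjusted 0.0173, rho = 0.806, permutation p = 0.00731, adjusted 0.055), Myocd (r = 0.791, permutation p = 0.00692, adjusted 0.0409, rho = 0.673, permutation p = 0.0393, adjusted 0.16) and Cnn1 (r = 0.788, permutation p = 0.00559, adjusted 0.0363, rho = 0.782, permutation p = 0.0105, adjusted 0.0622). Without the 2 farthest lungs, IPF replicate 3 and sham replicate 4, r was 0.577, 0.620 and 0.593, and none of the 10 Foxj1 pairs passed without IPF replicate 3. Among the 7 lungs other than IPF replicates 1, 2 and 4, r of Foxj1 was 0.979 with Cnn1, 0.922 with Acta2 and 0.905 with Myocd. These lungs were picked by Scgb1a1 and still hold IPF replicate 3, so these values are a description and no test. With group means removed, none of the 10 Foxj1 pairs passed, with exact permutation adjusted p of 0.0555 for Acta2, 0.0555 for Myocd and 0.105 for Cnn1.

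**Figure D4:**
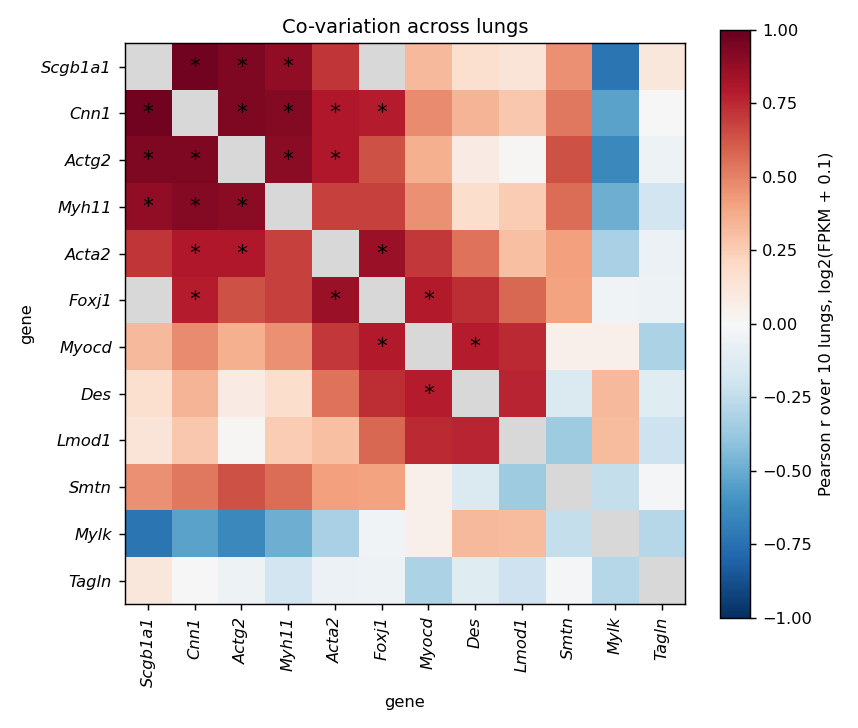
Pearson r over 10 lungs between members and with Scgb1a1 and Foxj1, from -1 (blue) to 1 (red), with a star where the permutation p adjusted over 65 pairs was under 0.05 and grey where no pair was computed. Scgb1a1, Cnn1, Actg2 and Myh11 form the block of highest values, from 0.885 to 0.964, and Tagln is pale throughout.

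For each lung, the standardised log2 values of the 10 members were averaged, and the 13445 genes with a mean of at least 1 FPKM were ranked by their Pearson r with this mean over the 10 lungs, as a description. Outside the members, genes among the 10 most like it were Tcp11 (r = 0.982), Foxj1 (0.977), Efcab1 (0.976), Cfap53 (0.965), Mgat3 (0.963), Lhb (0.962), Cfap126 (0.962), Tcte1 (0.958) and Nme9 (0.956). Each of these was highest in IPF replicate 3, and without it their r lay between 0.917 and 0.965. Myocd lay under this minimum and was not ranked. None of the 9 ranked members was among the first 100, the nearest being Acta2 (r = 0.883, rank 102) and Cnn1 (0.857, rank 156), while Mylk had a negative r of -0.15. IPF replicate 3 was the highest lung for 6 members and IPF replicate 1 the lowest for 4.

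Other genes of the contractile apparatus were counted on a list of 20, all tested. Of these, 1 rose and 2 fell at a limma adjusted p under 0.05, beside 3.71% and 2.14% of all genes tested. The median log2 fold change was -0.11, with 15 fitted lower and 5 higher. Synpo2, an actin-binding protein of the Z-disc, rose to 4.76 ± 0.526 FPKM from 3.03 ± 0.343 FPKM in the sham group (SD, n = 5 each), a log2 difference of 0.64 (limma adjusted p = 0.00522). Flna, the actin cross-linker filamin A, fell from 102 ± 6.88 to 78.3 ± 6.25 FPKM (log2 fold change -0.38, limma adjusted p = 0.00951), and Actn1, α-actinin, fell from 33.7 ± 1.69 to 25.3 ± 1.67 FPKM (-0.41, limma adjusted p = 0.00323). In these 3 genes all 5 IPF lungs lay on one side of all 5 sham lungs, as in 7.29% of all genes tested, and all 3 passed in each of 23 alternatives. They were picked by adjusted p, so the separation is not separate evidence. Flna and Actn1 are expressed in many cell types besides smooth muscle. The 2 genes of the list with the highest level, Myl6 (158 against 175 FPKM, limma adjusted p = 0.751) and Cnn2 (155 against 168 FPKM, limma adjusted p = 0.421), did not pass. Tpm2, smooth muscle β-tropomyosin, had a log2 difference of -0.45 (limma adjusted p = 0.141). It passed in 3 of 23 alternatives, without IPF replicate 3 (-0.61, limma adjusted p = 0.0101), without both IPF replicate 3 and sham replicate 1, and with array weights, and was at -0.21 with the airway covariate, and the adjusted p of the 23 ranged up to 0.276.

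Of 12 genes of transcriptional control, 0 passed in the limma fit or by limma voom, and 2 had an unadjusted limma p under 0.05. Srf was at 19.5 FPKM in the IPF and 21.3 FPKM in the sham group (log2 fold change -0.14, limma adjusted p = 0.515). For Srf, it was -0.22 without IPF replicate 1, -0.080 without IPF replicate 2 and -0.079 without sham replicate 4, with limma adjusted p from 0.187 to 0.761 over 23 alternatives. Its partners Mkl1 (-0.05, limma adjusted p = 0.765) and Mkl2 (0.04, limma adjusted p = 0.870), the myocardin-related factors, were nearly level. Foxf1 (124 against 123 FPKM, limma adjusted p = 0.969) and Klf4 (60.6 against 66.6 FPKM, limma adjusted p = 0.615) had the highest levels of the list.

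Of 16 genes of contraction signaling, 15 were tested, 1 rose and 2 fell (3.71% and 2.14% of all genes tested), with a median log2 fold change of 0.02. Adra1a, the α1A-adrenoceptor, which raises smooth muscle tone when noradrenaline binds, rose to 4.98 ± 0.840 FPKM from 2.13 ± 0.346 FPKM in the sham group (SD, n = 5 each), a log2 difference of 1.19 (limma adjusted p = 0.000965). Cacna1c, the L-type calcium channel subunit, fell from 5.62 ± 0.940 to 3.99 ± 0.205 FPKM (log2 fold change -0.47, limma adjusted p = 0.0213). Ppp1r12b, a subunit of myosin phosphatase, fell from 6.89 ± 0.855 to 5.28 ± 0.400 FPKM (-0.37, limma adjusted p = 0.0311), and its limma adjusted p was over 0.05 in 8 of 23 alternatives, up to 0.101. In all 3 the groups did not overlap, as in 7.29% of all genes tested, and Adra1a and Cacna1c passed in each of 23 alternatives. Gucy1a1 and Gucy1b1, the subunits of the nitric oxide receptor, were the most abundant of the list and had log2 fold changes of 0.31 (limma adjusted p = 0.155) and 0.17 (0.382). Gucy1a1 passed in 3 of 23 alternatives, with array weights, without IPF replicate 3 (0.40, limma adjusted p = 0.0289) and without both IPF replicate 3 and sham replicate 1, and was at 0.17 with the airway covariate (limma adjusted p = 0.352, the highest of the 23). Gucy1b1 passed in none of them and was at 0.11 without IPF replicate 5 and 0.069 with the airway covariate.

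Of 12 genes of the synthetic and myofibroblast phenotype, 2 rose and 0 fell (3.71% and 2.14% of all genes tested), with a median log2 fold change of -0.05. The 2 were Spp1 (0.92, limma adjusted p = 0.00943) and Pdgfra, a receptor of fibroblasts and myofibroblasts (44.997 ± 4.30 to 57.4 ± 3.95 FPKM, SD, n = 5 each, log2 difference 0.35, limma adjusted p = 0.0212). The call of Pdgfra was lost in 4 of 23 alternatives (limma adjusted p up to 0.0703), among them those without IPF replicate 4 and without sham replicate 2. Mgp (1094 against 1051 FPKM) and Vim (226 against 254 FPKM) had the highest levels and did not pass. Of the markers of airway smooth muscle, 4 of 5 were tested and 0 passed by limma or limma voom (0 also unadjusted), and their summed level was 13.1 to 16.8 FPKM in the IPF and 12.5 to 16.9 FPKM in the sham lungs. Hhip (10.1 against 9.23 FPKM) and Chrm2 (3.85 against 4.10 FPKM) led that list, while Lgr5 had a mean under 0.1 FPKM. Of 9 markers of vascular smooth muscle and pericytes, 5 were fitted higher and 4 lower, with a median log2 fold change of 0.02. Cox4i2 and Pdgfrb led the list and leaned higher (0.19 to 0.31 and 0.10 to 0.31 over 23 alternatives). Only 1 marker passed, as lower (2.14% of all genes tested). Cspg4, the pericyte proteoglycan NG2, fell to 3.18 ± 0.318 FPKM from 4.30 ± 0.366 FPKM in the sham group (SD, n = 5 each), a log2 difference of -0.43 (limma adjusted p = 0.0173). It was lost in 1 of 23 alternatives, without IPF replicate 3 and sham replicate 1 (limma adjusted p = 0.0556).

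Other muscle was looked for because Des and Myocd are not confined to smooth muscle. The summed level of 12 cardiac genes ranged from 20.3 to 174.8 FPKM in the IPF and from 31.3 to 155.6 FPKM in the sham lungs, with the atrial light chain Myl7 at 63.9 FPKM in IPF replicate 4 and 55.2 FPKM in sham replicate 3 and at most 2.85 FPKM in the other 8. Des of these 2 lungs was at 29.99 and 30.1 FPKM, inside the range of the rest. Myocd was at 0.419 and 0.427 FPKM there, above all other lungs but IPF replicate 3, and the part of heart muscle in its level was not tested. Of the 10 cardiac genes tested 0 passed (0 unadjusted, 0 by limma voom). Actc1 and Myl7 led the list, and Nppa and Myl2 had means under 0.1 FPKM. Skeletal muscle genes summed to 1.2 to 3.1 FPKM in the IPF and 1.3 to 2.4 FPKM in the sham lungs, Myod1 was listed at 0 in all lungs, and 0 of 4 tested genes passed (0 unadjusted, 0 by limma voom). All 8 cartilage genes had means under 0.1 FPKM.

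Of the remaining markers, 8 of arterial endothelium held 2 that rose, beside 3.71% of all genes tested: Gja5 (8.10 ± 1.83 to 13.7 ± 2.41 FPKM, SD, n = 5 each, log2 difference 0.76, limma adjusted p = 0.0211) and Gja4 (41.9 ± 2.42 to 57.4 ± 8.48 FPKM, 0.44, limma adjusted p = 0.0270), the gap junction proteins of arterial endothelial cells. Efnb2, with Gja4 the most abundant of the list, did not pass (-0.02, limma adjusted p = 0.935). Gja4 was over 0.05 in 12 and Gja5 in 5 of 23 alternatives. For mesothelium (5 tested, led by Msln and Upk1b), Schwann cells (4 tested, led by Mbp and S100b) and alveolar epithelium (8 tested, led by Sftpc and Sftpa1), 0 genes passed by limma or limma voom, with 0, 2 and 2 under an unadjusted limma p of 0.05. Sums over the alveolar list ran from 16378 to 18252 FPKM in the IPF and from 11879 to 19278 FPKM in the sham lungs, the lowest in sham replicate 1. The part of these cell types in the levels of the members was not tested.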

How the data were processed

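Whole-lung mRNA of 5 IPF and 5 sham mice was sequenced on an Illumina platform. Read trimming by the authors used Fastp, alignment HISAT2 and quantification StringTie, and the deposited values are FPKM in 1 column per mouse. The methods name GRCm39 and the submitters' processing notes name GRCm38, mm10, hg38 and Bowtie 0.12.2, but the gene positions are those of GRCm38. The paper names the KAPA and the sample records the NEBNext kit. Whether counting used strand is not given in the sources used here.

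In each library the product of deposited FPKM and gene length came in whole steps (within 0.02 of a step), and the number of steps was taken as the reads of a gene, from which only counting error was derived, apart from limma voom. No 2 libraries of a group were copies (chi-square per degree of freedom 4.78 to 37.3).

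Genes with a mean of at least 0.1 FPKM were tested with limma 3.58.1 (R 4.3.3, trended variances, no covariate) on log2(FPKM + 0.1), which understates changes of low genes, with Benjamini-Hochberg adjustment. The test was checked on simulated data. DESeq2, used by the authors, was not run, and limma voom stood in for a test on reads. Exact permutation tests used all 252 assignments (smallest two-sided p 0.00794). Correlations used 100000 permutations over 10 lungs and all orders over fewer lungs, or within groups where group means were removed. Tables were prepared in Python 3.11.15 (pandas 2.3.3, numpy 2.4.6).

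The members, gene lists and tests were chosen with earlier results of these data known. Named genes are all members, Scgb1a1, Foxj1, Xist, Ddx3y, Arntl and Dbp, list genes under an adjusted p of 0.05, the 2 most abundant of each list, list genes at 0, and the 10 genes most like the members, of which 1 is not reported here. Tpm2, Srf, Mkl1, Mkl2 and some markers were named after their values were seen. Alternatives were pseudocounts, filters, scalings, variance trend, array weights, replicate block, limma voom, airway and cardiac covariates, and left-out libraries. Leaving out IPF replicate 3 and sham replicate 1 together was added after seeing the data. The replicate numbers did not pair the lungs.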

Additional observations from a re-analysis of the deposited data

Results flagged for a closer look

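In 24 groups of 5 lungs (10 members and 2 airway genes, each in IPF and sham), 1 lung lay far from the rest by Dixon's criterion, where chance gives about 1 in 20. This was Foxj1 in IPF replicate 3, at 30.7 FPKM, where the next IPF lung was at 10.1 FPKM. The gap made up 0.770 of the range on the log2 scale, and the critical value is 0.71. The same lung was the highest of all 10 for Acta2, Cnn1, Actg2, Lmod1, Myocd and Des.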

How the results depend on the processing

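Of the 10 members, 1 passed at a limma adjusted p under 0.05. It was 0 without a filter, with median-of-ratios scaling, quantile normalization, no variance trend, the replicate block, limma voom, and the airway or the cardiac covariate, and 2 with array weights, which added Mylk (log2 fold change 0.21, adjusted p = 0.0487). Leaving out 1 lung gave 0 to 2. At the log2 fold limit of 1, 0 passed, and leaving out 1 lung gave 0 to 2, with 2 without IPF replicate 3 and 1, Actg2 (-1.01, adjusted p = 0.0345), without IPF replicate 3 and sham replicate 1. The 3 called genes of the contractile apparatus became 5 with array weights and 5 without those 2 lungs, and 3 to 4 when 1 lung was left out. Signs turned for Acta2 with the airway covariate (0.11), for Tagln when 1 lung was left out (-0.19 to 0.043), and for Myocd when 1 lung was left out (-0.025 to 0.16) and without IPF replicate 3 and sham replicate 1 (-0.0083). None of these passed. The 6 member pairs and 6 airway pairs became 3 and 3 by Spearman's rho and 2 and 2 with group means removed, and leaving out 1 lung gave 3 to 7 and 3 to 6. Over all genes, 1196 calls became 781 with the airway covariate and 775 without IPF replicate 4, and rose to 1749 with array weights, 1620 without IPF replicate 5 and 1464 with limma voom. The cause of these changes was not tested. Deviations of same-numbered lungs correlated at -0.04 to 0.17, so the replicate number gave no pairing, and the block turned the call of Smtn (adjusted p = 0.0533). Myocd and Tagln had the fewest reads, and with the filter at 1 FPKM Myocd was not tested. The direction of Smtn, Myh11, Cnn1, Actg2, Lmod1, Des and Mylk held in each of 23 alternatives.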
